A study of Danio rerio with 4 samples.

Results

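This account is of 4 noncoding RNAs of the cell nucleus in untreated adult zebrafish gonads: malat1, rpph1, rn7sk and rmrp. They were picked by gene symbol from a table of 32520 Ensembl genes, with their read counts in these same libraries already known. The symbol terc, the RNA of telomerase, was also looked for, and no row was matched to it, so terc was not analysed here. The samples were gonads of null control fish of the AB laboratory strain, adults that received neither exemestane, an inhibitor of oestrogen synthesis, nor its solvent. There were 2 ovaries from females and 2 testes from males, and each library was made from 1 fish. The comparison gives the baseline difference between the sexes in these RNAs. No genome or RNA sequence was at hand, so none is printed.

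The 4 RNAs act at different steps of nuclear RNA metabolism, as known mostly from human and mouse cells. malat1 is a long RNA kept in nuclear speckles, the stores of splicing factors, and its 3′ end is cut by RNase P and closed by a triple helix in place of a poly(A) tail. rpph1 is the catalytic RNA of RNase P, which trims the 5′ ends of tRNA precursors, and rmrp is the related RNA of RNase MRP, which cuts ribosomal RNA precursors. rn7sk, the 7SK RNA, holds the elongation kinase P-TEFb inactive together with HEXIM, MEPCE and LARP7 proteins. RNA polymerase III makes rpph1, rn7sk and rmrp from promoters of type 3, which lie upstream of the transcribed part, whereas RNA polymerase II makes malat1.

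The libraries held between 11554811 and 26137839 counts, and the ovary libraries were the deeper ones. Oocyte and sperm markers separated the labelled tissues. The 7 oocyte markers summed to 7608 and 4976 CPM (counts per 1000000 counts of the scaled library) in ovary, against 53.6 and 44.6 CPM in testis. The 5 genes listed for male germ cells and sperm were sycp3, tekt1, rsph9, gapdhs and piwil1. They summed to 231 and 172 CPM in ovary, against 2284 and 2349 CPM in testis. In both ovaries tekt1 and rsph9 had 0 counts, so the ovary sums came from the others and are not read as male germ cells. Markers of Sertoli cells (3 of 4 found) and leukocytes (3 of 5 found) were also higher in both testes, at 1015 and 1165 CPM against 42.7 and 20.6 CPM, and at 45.7 and 36.7 CPM against 7.78 and 11.8 CPM. Granulosa cells are an ovarian type, but the 1 of their 3 markers that was found was also higher in testis, at 56.8 and 35.4 CPM against 3.55 and 11.3 CPM. Markers were looked up by their listed spelling alone, so those not found may have a row under another name. Nothing is read about granulosa cells from this 1 marker. Markers of steroidogenic cells overlapped between the sexes, at 738 and 588 CPM in ovary, against 1672 and 567 CPM in testis. So did liver markers, at 46.8 and 6.59 CPM against 35.3 and 40.8 CPM. Red blood cell markers overlapped as well, at 1.91 and 5.71 CPM against 11.6 and 5.37 CPM. Ovary and testis differ in cell types, and the part of that difference in the levels of the 4 RNAs was not tested. In whole gonads, fewer cells of a type and less RNA per cell cannot be told apart.

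All 4 RNAs were higher in both testes than in both ovaries, by 2.05-fold for rmrp, 3.12-fold for rpph1, 4.85-fold for malat1 and 25.9-fold for rn7sk. Of all 21815 tested genes, 48.1% also had both testes above both ovaries. Together the 4 RNAs took 0.091% (95% Wilson interval 0.0898 to 0.0921) and 0.192% (0.19 to 0.194) of the counts in the ovaries. In the testes they took 1.21% (1.21 to 1.22) and 0.921% (0.915 to 0.926). These intervals cover counting error only. malat1 supplied between 59.7% and 75.3% of these counts in every library.

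**Figure D1:**
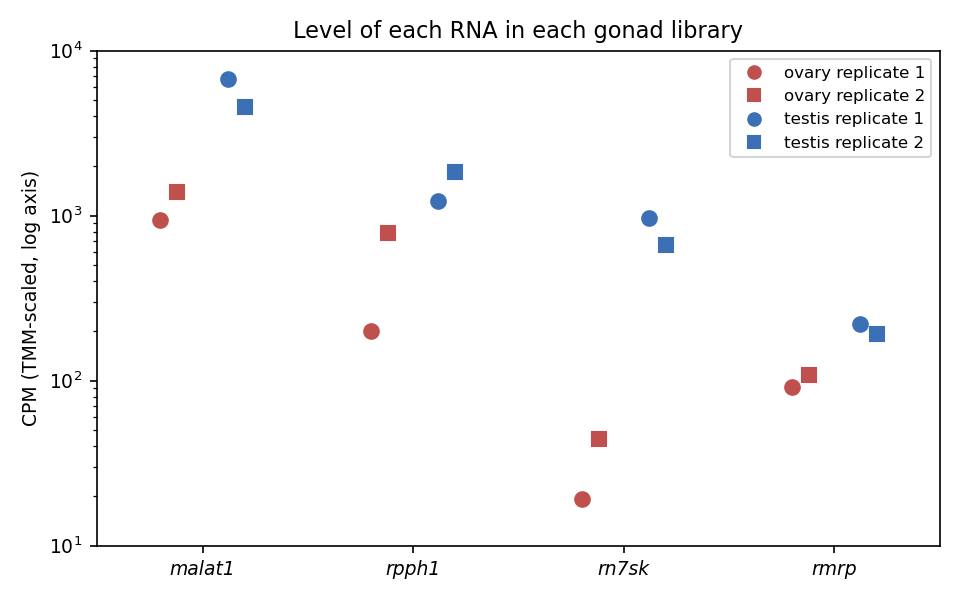
Level of malat1, rpph1, rn7sk and rmrp in each library, in CPM on a log axis, with circles for replicate 1 and squares for replicate 2 of each sex. Both testes lie above both ovaries for each RNA, and the gap is widest for rn7sk, from 19.1 and 44.3 CPM in the ovaries to 975 and 665 CPM in the testes.

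malat1 (ENSDARG00000099970) had 17907 and 20763 counts in the ovaries and 103333 and 71763 counts in the testes. After scaling these were 948 and 1396 CPM in ovary, against 6780.2 and 4584 CPM in testis. Testis replicate 1 was the highest library, and the lowest testis was 3.28 times the highest ovary. By counts not divided by gene length, which favour long genes, malat1 had the highest count of any gene in testis replicate 1 and ranked 3 in testis replicate 2. In ovary it ranked 149 and 62. The log2 fold change was 2.28 ± 0.75 (SE, testis over ovary, 2 libraries each), and 70.3% of tested genes had a lower one.

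rn7sk (ENSDARG00000081270) differed most. Its counts were 361 and 659 in the ovaries and 14854 and 10404 in the testes, or 19.1 and 44.3 CPM against 975 and 665 CPM. The sexes were far apart, although the ovaries themselves differed by 2.32-fold. The log2 fold change was 4.69 ± 0.53 (SE), above that of 87.4% of tested genes. By count rn7sk ranked 32 and 66 in the testes and 8731 and 6049 in the ovaries, so it was among the abundant genes in testis and not in ovary.

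rpph1 (ENSDARG00000089617) had 3774 and 11716 counts in the ovaries and 18837 and 28807 counts in the testes. These were 199.8 and 787 CPM in ovary, against 1236 and 1840 CPM in testis. The groups did not overlap, but ovary replicate 2 came close to the testes. The ovaries differed by 3.94-fold, a larger gap on the log2 scale than in 98.5% of the genes whose average CPM had a log2 of 5 or more. The log2 fold change was 1.64 ± 0.69 (SE), 0.97 without ovary replicate 1 and 2.85 without ovary replicate 2. Ovary replicate 2 was also the higher ovary for malat1, rn7sk and rmrp, for the summed 7SL RNA rows (3937 against 1963 CPM) and for the summed snoRNA and scaRNA rows (149 against 20.4 CPM). The spliceosomal snRNA rows (8.05 and 16.1 CPM in ovary, 59.6 and 81.8 CPM in testis) and the mitochondrial rows (1906 and 4107 CPM in ovary, 9854 and 5882 CPM in testis) were, like the 4 RNAs, higher in both testes and in the second ovary, and the part of these RNA classes in the results was not tested. The snoRNA and scaRNA rows, at 56.7 and 47.5 CPM in testis, and the 7SL RNA rows, at 2762 and 4706 CPM, overlapped between the sexes. Without ovary replicate 2 the rpph1 difference was larger, as given above.

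rmrp (ENSDARG00000080987) varied least. It had 1739 and 1624 counts in the ovaries and 3354 and 3011 counts in the testes, which gave 92.1 and 109 CPM against 220.1 and 192 CPM. Replicates of one sex differed by 1.19-fold in ovary and by 1.14-fold in testis. The log2 fold change was 1.04 ± 0.23 (SE), and 57.3% of tested genes had a lower one.

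These fold changes depend in part on how the libraries were scaled. Scaling with TMM, edgeR's trimmed mean method, left a median log2 fold change of 0.45 over all tested genes, and scaling by library size alone left 1.19. Relative to the median gene, malat1 was higher in testis by 1.83 under TMM and 1.82 under library size, rpph1 by 1.19 and 1.13, rn7sk by 4.24 and 4.22, and rmrp by 0.58 and 0.58 on the log2 scale. Without a filter on low counts rmrp lay at -0.11 relative to the median gene. With 0.05 as the limit on edgeR's adjusted p, 3 of the 4 RNAs (malat1, rn7sk and rmrp) were called, all higher in testis, where 36.7% of all tested genes were called higher in testis and 65.2% in either direction. The call of malat1 was lost in 6 of 13 alternatives: with the replicate block, with DESeq2's size factors, with at least 10 counts in each library, and without ovary replicate 1, ovary replicate 2 or testis replicate 1. That of rmrp was lost without ovary replicate 1, where rn7sk alone was called. rpph1 was called in 4 of the 13, one of them without ovary replicate 2. The genes were chosen with these counts in view, so nothing is read from these numbers.

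**Figure D2:**
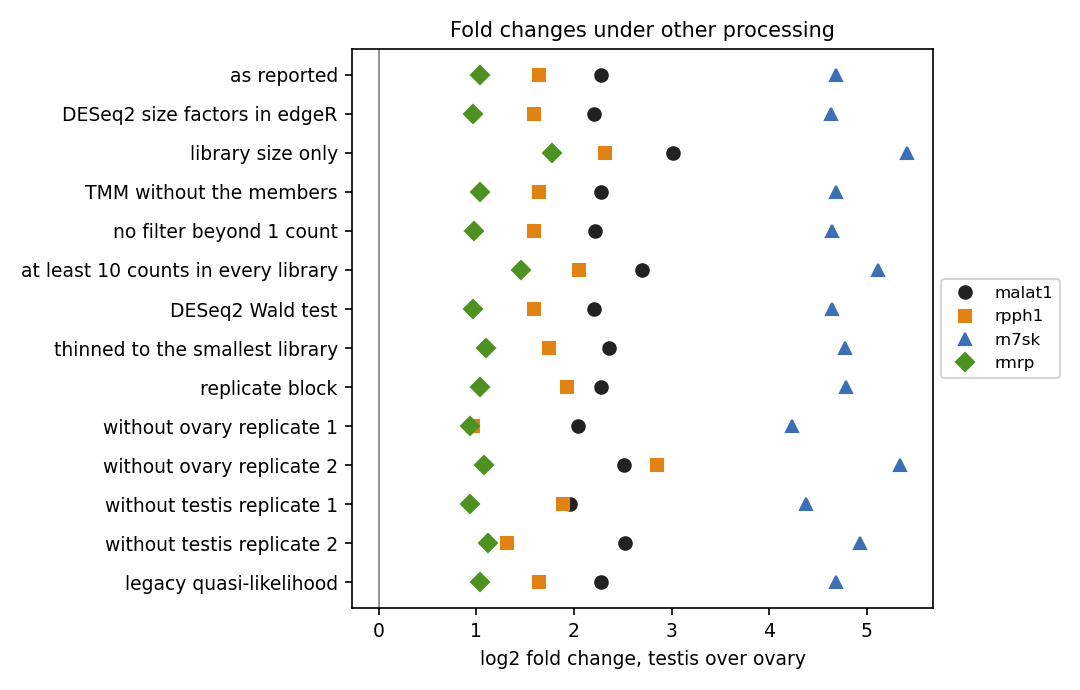
log2 fold change of each RNA, testis over ovary, as reported and under 13 other ways of processing the counts, one row for each. All values lie above 0. The widest range is that of rpph1, from 0.97 without ovary replicate 1 to 2.85 without ovary replicate 2.

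Ratios of counts within a library do not depend on scaling, and some of them separated the sexes in these 4 libraries. Each ratio is between counts not divided by length, so its change between the sexes is of interest and not its size. The ratio of rn7sk to rmrp was 0.208 and 0.406 in the ovaries and 4.43 and 3.46 in the testes, 13.5 times higher in testis. rn7sk was thus the less counted of both RNAs in ovary and the more counted in testis. The ratio of rpph1 to rn7sk was 10.5 and 17.8 in the ovaries and 1.27 and 2.77 in the testes. The ratio of malat1 to rn7sk was 49.6 and 31.5 in the ovaries and 6.96 and 6.90 in the testes, nearly the same in both testes.

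The ratio of malat1 to rmrp was 10.3 and 12.8 in the ovaries and 30.8 and 23.8 in the testes. In contrast, the ratio of malat1 to rpph1 overlapped between the sexes, with 4.74 and 1.77 in the ovaries and 5.49 and 2.49 in the testes. That of rpph1 to rmrp overlapped as well, with 2.17 and 7.21 in the ovaries and 5.62 and 9.57 in the testes. The ratios without overlap were those with rn7sk and that of malat1 to rmrp. No test was run on the ratios, since the RNAs were chosen by these counts. The share of other gene pairs whose ratios separate was not computed, so the number that separated is not read as a result. Of all tested genes, 48.1% had both testes above both ovaries and 36.6% had the reverse.

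**Figure D3:**
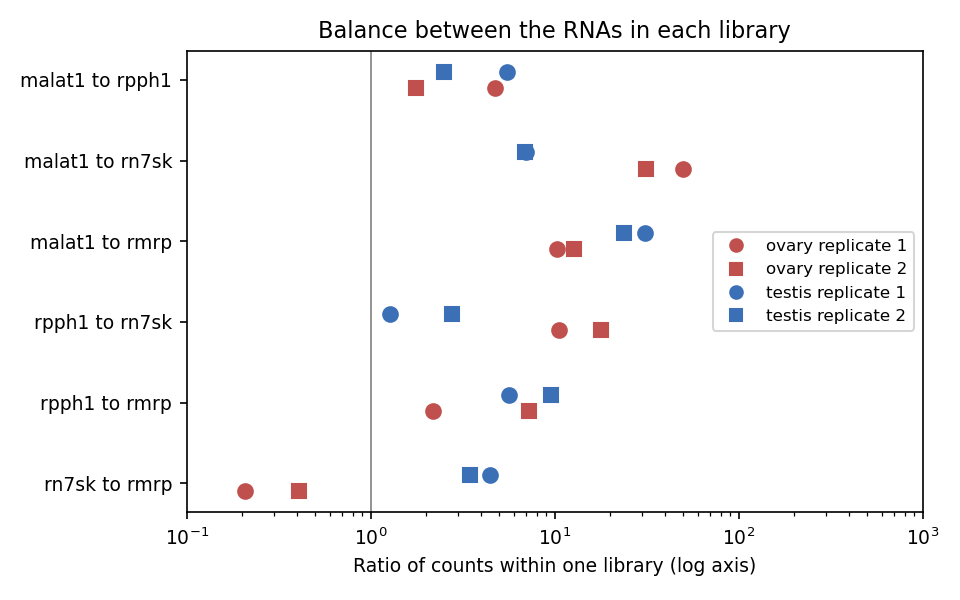
Ratios of counts between pairs of the 4 RNAs in each library, on a log axis, with a line at a ratio of 1. The ratio of rn7sk to rmrp lies below 1 in both ovaries (0.208 and 0.406) and above 1 in both testes (4.43 and 3.46), whereas the ratios of malat1 to rpph1 and of rpph1 to rmrp overlap between the sexes.

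Other rows with a name of the same RNA family were then looked up, after the values above had been seen. A second RNase P RNA row, rnasep_nuc (ENSDARG00000085497), had 6997 and 13747 counts in the ovaries and 4582 and 2895 counts in the testes. In CPM it was higher in both ovaries, at 370.4 and 924 against 301 and 185, the opposite of rpph1, and its log2 difference was -1.41 ± 0.50 (SE, edgeR adjusted p 0.047). This call was close to the threshold and was made in 6 of 13 alternatives, with log2 fold changes from -1.91 to -0.68 and adjusted p from 0.00546 to 0.291. It was lost without ovary replicate 2 and without testis replicate 2.

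rpph1 had fewer counts than rnasep_nuc in both ovaries, and in the testes it made up 80.4% and 90.9% of the counts of the RNase P RNA rows. Summed over these 3 rows, RNase P RNA was at 570.2 and 1711 CPM in ovary, against 1537 and 2025 CPM in testis, and the sexes overlapped. The third row, also named rnasep_nuc (ENSDARG00000084661), had 1 count in all. A row named 7sk (ENSDARG00000083675) had 0 counts in every library. Reads that align to several copies may be lost or split by the counting, so the division between copies is uncertain.

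Rows of 7SL RNA, the scaffold of the signal recognition particle and another RNA polymerase III product, likewise went in opposite directions. The row rn7sl1 (ENSDARG00000087732) rose from 137 and 249 CPM in the ovaries to 2720.5 and 4607 CPM in the testes (log2 fold change 4.25 ± 0.69, SE, edgeR adjusted p 0.00299). The row rn7sl1-3 (ENSDARG00000109517) did the reverse, with 116 and 272 CPM in ovary, against 1.51 and 1.34 CPM in testis (-7.08 ± 0.53, SE, edgeR adjusted p 0.00025). rn7sl1-2 was also higher in ovary, by -6.32 on the log2 scale (edgeR adjusted p 0.000732). The row rn7sl1-5 had 1233 and 2062 counts in the ovaries and 20 and 1 in the testes. It passed the filter on low counts only through the ovaries, so its counts are given without a p. Of the counts of these 5 rows, rn7sl1 held 31.0% and 26.2% in the ovaries and 99.9% in each testis. In the ovaries these 5 rows held only 8329 and 14156 of the 37085 and 58571 counts of all 81 rows named for 7SL RNA. In the testes they held 41518 and 72197 of 42098 and 73678. Over all 81 rows the sexes overlapped, at 1963 and 3937 CPM in ovary, against 2762 and 4706 CPM in testis.

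**Figure D4:**
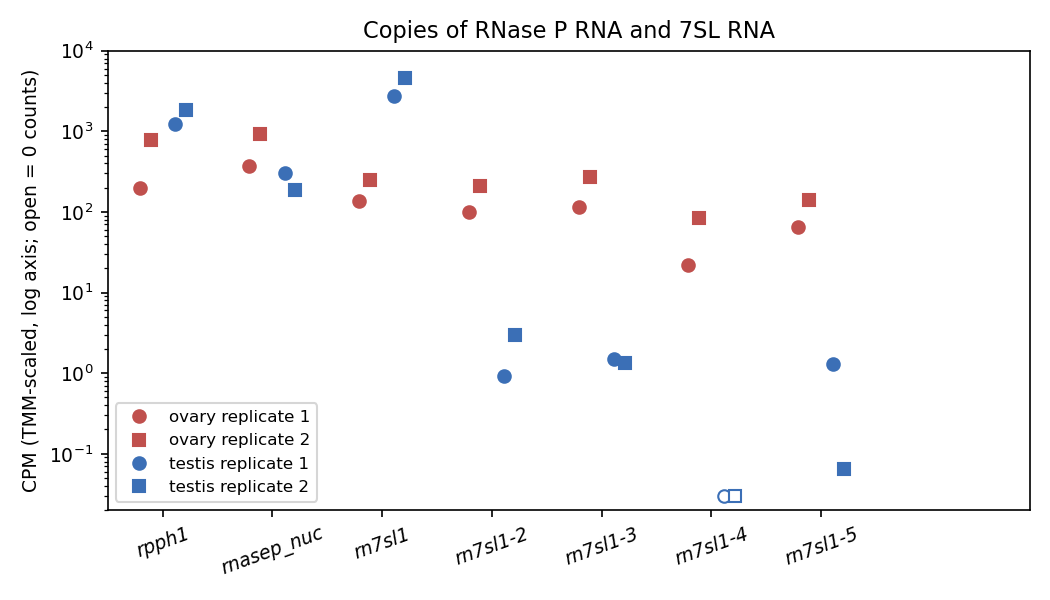
CPM on a log axis of rpph1, the second RNase P RNA row rnasep_nuc and the rows of 7SL RNA in each library, with open symbols at the bottom for 0 counts. rpph1 and rn7sl1 are higher in the testes, while rnasep_nuc and rn7sl1-2 to rn7sl1-5 are higher in the ovaries, rn7sl1-4 with 0 counts in both testes.

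For rpph1 and rn7sk, neighbouring genes could be read from the RefSeq annotation of GRCz12tu, an assembly newer than the one the reads were counted on. There rpph1 overlaps parp2, a DNA repair gene, with 57.6 and 67.3 CPM in ovary and 82.3 and 69.5 CPM in testis. Its log2 fold change of 0.28 ± 0.22 (SE) did not pass (edgeR adjusted p 0.294). On the other side of rpph1, sdr39u1 was higher in ovary (-3.23 ± 0.40, SE, edgeR adjusted p 0.00108). On one side of rn7sk, polh, a DNA polymerase gene, was also higher in ovary (-1.95 ± 0.21, SE, edgeR adjusted p 0.000694). On the other side, gsta.2 was higher in testis, as rn7sk was, at 0.0529 and 0.0672 CPM in ovary, against 1.18 and 1.79 CPM in testis. It passed the filter on low counts only through the testes, so its values are given without a p.

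The genes with the most similar pattern were sought for each RNA among 6741 named genes whose average CPM had a log2 of 5 or more. A gene high in testis alone could thus enter. Likeness was the root mean square difference of log2 CPM over the 4 libraries, each gene centred on its own mean. Closest to malat1 were ddx19a (0.10), acsl1b (0.14) and nrp1 (0.15). Closest to rmrp were srebf1 (0.05), dcaf11 (0.06) and hnrnpk (0.07), and closest to rpph1 were foxo1 (0.18), pkd1a (0.20) and atp1a3a (0.22). For rn7sk they were lgr4 (0.20), h1-10 (0.22) and aldh1a2 (0.23). These distances rest on 4 libraries and carry no test.

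Lists of protein genes were then examined, for the complexes that hold, make or process these RNAs. Others were for telomerase, telomere-binding complexes and elongation factors linked to P-TEFb. Of 100 tested genes in 8 lists, 67 were called higher in ovary, 13 were called higher in testis and 20 did not pass (edgeR, adjusted over all tested genes). Of all tested genes 28.5% were called higher in ovary and 36.7% higher in testis. The median log2 fold change of the 100 genes was -1.41, against 0.45 for all tested genes. Both ovaries lay above both testes for 76 of the 100, as for 36.6% of all genes. With library size scaling 17.6% of all tested genes were higher in ovary and 47.7% in testis. Of the 100 genes, 44 were higher in ovary and 20 in testis with this scaling. Without ovary replicate 2, as without testis replicate 2, 7 were higher in testis. None of the 80 calls changed its direction under the 13 alternatives, and 50 were kept in all of those that tested the gene. The lists were chosen with earlier results of these data known, so these shares are given as description. No set test was run on the lists.

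**Figure D5:**
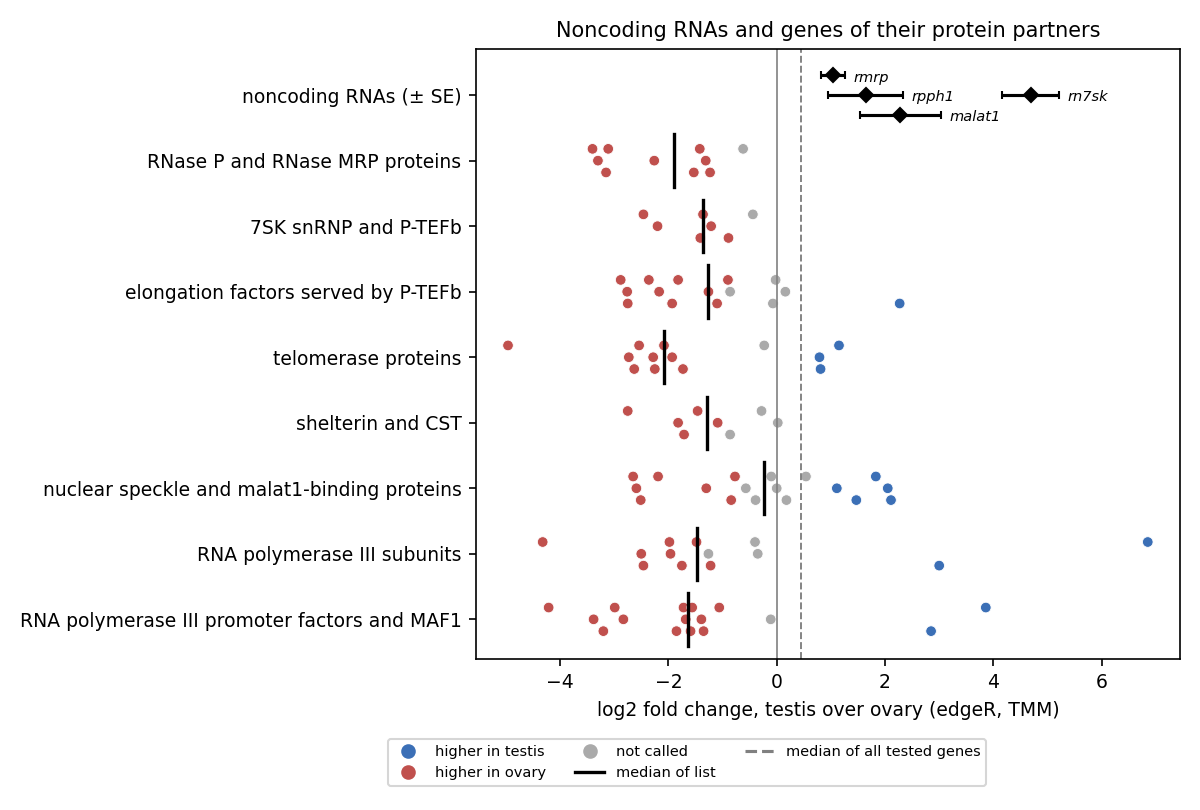
log2 fold change, testis over ovary, of the 4 noncoding RNAs (diamonds, ± SE) and of each tested gene in the 8 partner lists (points), with the list median as a black bar and the median of all tested genes (0.45) dashed. The RNAs lie to the right, at 1.04 to 4.69, and the list medians to the left, from -2.08 for telomerase proteins to -0.24 for nuclear speckle and malat1-binding proteins.

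Among the protein subunits of RNase P and RNase MRP, many of which both enzymes share in human cells, 9 of 10 tested genes were higher in ovary and 0 in testis, with a median of -1.89. pop1, the largest subunit, had 54.7 and 51.8 CPM in ovary, against 5.58 and 5.24 CPM in testis (-3.30 ± 0.26, SE, edgeR adjusted p 0.000293). rpp38, which binds the RNA, had 70.2 and 84.5 CPM in ovary, against 7.41 and 7.22 CPM in testis (-3.40 ± 0.25, SE, edgeR adjusted p 0.000243). Neither gene overlapped between the sexes. rpp25l and pop4, which encode other subunits, were higher in ovary by 8.63-fold and 8.85-fold (edgeR adjusted p 0.000285 and 0.000282), and rpp30 was by 2.89-fold (edgeR adjusted p 0.0061). pop7 did not pass, at -0.62 ± 0.27 (SE, edgeR adjusted p 0.0886), and pop5 passed narrowly (0.0482) and was lost in 8 of 13 alternatives. With library size scaling 5 of the 10 were called.

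The 7SK complex showed the same direction, in 6 of 7 tested genes with a median of -1.36. cdk9, the kinase of P-TEFb, had 79.3 and 107 CPM in ovary, against 19.8 and 14.1 CPM in testis (-2.46 ± 0.29, SE, edgeR adjusted p 0.000952). larp7, which protects the 3′ end of 7SK, had 90.6 and 102 CPM in ovary, against 29.5 and 45.5 CPM in testis (-1.36 ± 0.28, SE, edgeR adjusted p 0.00639). Both genes were thus lower where rn7sk was higher. The rows of mepce, the 7SK capping enzyme, were higher in ovary by 2.65-fold and 2.32-fold (edgeR adjusted p 0.00547 and 0.0117). Of the cyclins of P-TEFb, both ccnt2 rows passed and ccnt1 did not (-0.44 ± 0.23, SE, edgeR adjusted p 0.133). hexim1 was not matched to a row and was not analysed here. With library size scaling 2 of the 7 were called, and larp7 and both mepce rows were not among them, whereas without ovary replicate 1 there were 4.

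Of 15 elongation factors linked to P-TEFb, 10 were higher in ovary and 1 in testis. The list also holds subunits of the negative elongation factor NELF. Of these, nelfa, nelfb and nelfe were among the genes higher in ovary and nelfcd did not pass. ell, an elongation factor of RNA polymerase II, was higher in ovary by 6.74-fold (edgeR adjusted p 0.000321). The exception was 1 of 2 mllt1 rows (ENSDARG00000031709), with 3.02 and 1.34 CPM in ovary, against 8.79 and 12.4 CPM in testis (edgeR adjusted p 0.017). It was not called without ovary replicate 2 or without testis replicate 2. The other mllt1 row (ENSDARG00000043185) was higher in ovary, at 174 and 169 CPM against 23.1 and 27.3 CPM (edgeR adjusted p 0.000302). The scaffold aff4 was at -0.07 ± 0.20 (SE, edgeR adjusted p 0.778).

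The proteins of nuclear speckles and those that bind or process malat1 had calls in both directions, as tested genes in general did. Of 18 tested genes, 7 (38.9%) were higher in ovary and 5 (27.8%) in testis, with a median of -0.24. Of all tested genes 28.5% were higher in ovary and 36.7% in testis, so the split is not read as particular to this list. The median was 0.52 with library size scaling and 0.17 where each library had to hold 10 counts of a gene. elac2, the RNase Z that trims the small RNA released from the malat1 3′ end in mammals, had 216 and 199.9 CPM in ovary, against 28.3 and 40.6 CPM in testis (-2.59 ± 0.26, SE, edgeR adjusted p 0.000585). mettl16, which binds the triple helix of human MALAT1, was higher in ovary by 5.69-fold (edgeR adjusted p 0.000459). Calls in both directions were found among the splicing factors. Of the srsf1 rows, 1 (ENSDARG00000057691) had 307 and 329 CPM in ovary, against 54.5 and 46.6 CPM in testis (edgeR adjusted p 0.000391). The other (ENSDARG00000017843) had 67.5 and 75.2 CPM in ovary, against 189 and 205 CPM in testis (edgeR adjusted p 0.00203). srsf2a was higher in ovary (-1.30 ± 0.22, SE, edgeR adjusted p 0.0036) and srsf2b in testis (1.83 ± 0.22, SE, edgeR adjusted p 0.000934), and srsf5a was higher in testis by 4.30-fold (edgeR adjusted p 0.000857). The calls of srsf3 (ENSDARG00000025397) and srsf5 (ENSDARG00000027734) in testis were lost without ovary replicate 2 and without testis replicate 2, and that of srsf3 also without ovary replicate 1.

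For telomerase, whose RNA was not analysed here, the list held genes of its proteins and of factors that assemble or regulate it. Of 13 tested genes, 9 were higher in ovary, 3 in testis and 1 did not pass. tert, the reverse transcriptase, was among the 3, with 35.8 and 42.7 CPM in ovary, against 56.6 and 118 CPM in testis (1.15 ± 0.37, SE, edgeR adjusted p 0.033). The call of tert was lost without a filter on low counts, without ovary replicate 1, without ovary replicate 2 and without testis replicate 2. With 1 library left out its log2 fold change was as low as 0.51. tep1 and ruvbl2 were the other 2, and both were lost without ovary replicate 2 and without testis replicate 2. In all, the call of tep1 was lost in 8 of 13 alternatives, among them DESeq2's size factors, its Wald test and the replicate block. That of ruvbl2 was lost in 4, among them the replicate block and the fit without a filter. dkc1, which binds the telomerase RNA and other box H/ACA RNAs, was higher in ovary (-1.93 ± 0.22, SE, edgeR adjusted p 0.000803). parn, a deadenylase that trims human telomerase RNA and also acts on mRNA, had 877 and 629 CPM in ovary, against 22.7 and 25.5 CPM in testis, a 31.2-fold difference (edgeR adjusted p 0.000216). Of 8 genes of the telomere-binding shelterin and CST complexes, 5 were higher in ovary and 0 in testis. Among them tinf2 was higher in ovary by 6.71-fold (edgeR adjusted p 0.000378), terf1 by 3.53-fold (edgeR adjusted p 0.0022), and pot1 was at -0.28 ± 0.33 (SE, edgeR adjusted p 0.486).

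RNA polymerase III, which makes rpph1, rn7sk and rmrp, was the last group examined. Of 13 tested subunit genes, 8 were higher in ovary and 2 in testis. polr3e was higher in ovary by 5.66-fold (edgeR adjusted p 0.000372). The large subunit polr3a was higher in ovary by 2.32-fold (edgeR adjusted p 0.0115), a call lost without ovary replicate 1 and with library size scaling. The 2 genes higher in testis were polr3glb and polr3gla, which encode forms of 1 subunit. polr3glb had 1 and 7 counts in the ovaries and 423 and 482 counts in the testes. polr3gla had 7 and 8 counts in the ovaries and 55 and 58 in the testes, and was not called without ovary replicate 1. The alternative form polr3g, 1 of the 8 genes higher in ovary, had 95 and 64 counts in the ovaries and 4 and 3 in the testes. These 3 genes had under 10 counts in each library of 1 sex and so passed the filter on low counts only through the other, which is why their counts are given without a p. Where each library had to hold 10 counts, 7 subunit genes were higher in ovary and 0 in testis.

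Promoter factors of RNA polymerase III and its repressor MAF1 followed, with 13 of 16 tested genes higher in ovary and 2 in testis. Both genes higher in testis, brf1 and maf1a, are not particular to type 3 promoters. Nor are brf1a, bdp1, tbp and maf1, which were among the genes higher in ovary. Subunits of the SNAPc complex that binds these promoters were higher in ovary, by 10.4-fold for snapc1b (edgeR adjusted p 0.000324), while snapc4 was at -0.11 ± 0.27 (SE, edgeR adjusted p 0.746). brf2, the initiation factor of type 3 promoters in mammals, was higher in ovary by 2.54-fold (edgeR adjusted p 0.00587). bdp1 had 123 and 133 CPM in ovary, against 6.23 and 7.54 CPM in testis (edgeR adjusted p 0.000144), and tbp had 262 and 324 CPM against 25.5 and 38.1 CPM (edgeR adjusted p 0.00045). Each of the genes higher in testis had a copy higher in ovary. The row brf1 (ENSDARG00000005002) had 3.02 and 4.10 CPM in ovary, against 57.4 and 45.7 CPM in testis (edgeR adjusted p 0.000329), and brf1a had 46.6 and 44.0 CPM against 15.9 and 14.3 CPM (edgeR adjusted p 0.00254). For MAF1, a repressor of the polymerase, maf1a had 72.3 and 87.3 CPM in ovary, against 514 and 633 CPM in testis (edgeR adjusted p 0.000573). The row maf1 (ENSDARG00000036489) had 241 and 427 CPM in ovary, against 39.8 and 54.1 CPM in testis (edgeR adjusted p 0.00127).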

How the data were processed

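Gonads of 4 AB zebrafish were profiled by stranded RNA-Seq after removal of ribosomal RNA, per the labels. The authors deposited raw read counts per Ensembl gene. Reads were aligned with HISAT2 2.0.5 to GRCz11 with Ensembl annotation, processed with SAMtools 1.5 and counted over exons on the reverse strand with HTSeq 0.9.1. The methods of the study describe polyadenylated libraries and removal of duplicate reads. The former can lower RNAs without a poly(A) tail, and the latter short abundant RNAs. How far malat1 would be affected was not tested. Whether either applies to these counts was not tested.

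Symbols were lower-cased and matched for 29201 of 32520 IDs. In the lists of protein genes, a symbol without a row was looked up without its final a or b. Cell type markers were looked up by their listed spelling alone. aff1, hexim1, son and terf2 had no match. The members and lists were chosen with earlier results of these data known.

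Genes were filtered with filterByExpr (21815 left), scaled by TMM and tested with edgeR 4.0.16 (quasi-likelihood, R 4.3.3) with Benjamini-Hochberg adjustment at 0.05. SE was the log2 fold change divided by the square root of F. CPM means carry no correction for length. In log2 CPM the prior count was 2, and the mean log2 CPM of a gene was edgeR's log2 of its average CPM. The 4 RNAs were in the fit, but were chosen with these counts known, so their calls are given as counts only and support nothing. Named partner genes were at least the 2 called genes of highest mean log2 CPM in each list and direction, and tert, dkc1, larp7, mepce, hexim1, cdk9, rpp30, pop1, elac2 and mettl16 whatever their value. A gene that this rule names is not reported here. Other called genes and those that did not pass were chosen after their values were seen. Alternatives changed the scaling, the filter, the test, the depth (thinning), the block and the libraries used. Replicates differed by a chi-square per degree of freedom of 73.6 in ovary and 37.1 in testis, far beyond sampling noise. The pipeline was tested on simulated counts. Figures used matplotlib 3.10.9 in Python 3.11.15.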

Additional observations from a re-analysis of the deposited data

How the results depend on the processing

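The 4 RNAs were higher in testis under each of the 13 alternatives, and between 1 (without ovary replicate 1) and 4 (library size scaling, DESeq2's Wald test) of them were called, where 23.2%, 47.7% and 34.2% of all tested genes were higher in testis. They were chosen with these counts known, so nothing is read from this. With library size scaling the log2 fold changes were 3.01 for malat1, 5.41 for rn7sk and 1.77 for rmrp. With at least 10 counts in every library they were 2.70 for malat1 and 1.46 for rmrp. This filter left fewer tested genes, of which 4566 of 15277 (29.9%) were higher in testis, against 8002 of 21815 (36.7%). With library size scaling 3833 genes were higher in ovary, against 6217, and 73.1% of calls were male-biased, against 56.3%. This scaling also gave 5 RNase P and RNase MRP, 2 7SK complex, 3 shelterin and CST and 5 RNA polymerase III genes higher in ovary, and 3 elongation factor, 1 shelterin and CST and 8 nuclear speckle genes higher in testis. It moved the median of the nuclear speckle list to 0.52, and the filter on 10 counts moved it to 0.17. The count of telomerase genes higher in testis was 0 without a filter, and that of RNA polymerase III genes was 0 with 10 counts in every library. With listed spellings alone, an alternative added after the data were seen, genes higher in testis were 0 elongation factors, 2 nuclear speckle genes and 1 gene of the promoter factor list. The causes were not tested.

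With each library left out in turn, the lone library being assumed to vary like the other sex, the log2 fold change ran from 1.96 to 2.52 for malat1, 0.97 to 2.85 for rpph1, 4.23 to 5.34 for rn7sk and 0.93 to 1.12 for rmrp. Genes higher in testis ran from 5424 to 7193 and in ovary from 5043 to 5772. Counts higher in testis ran from 0 to 1 for elongation factors, 0 to 2 for telomerase, 3 to 5 for nuclear speckles and 1 to 2 for RNA polymerase III.

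The replicate numbers pair no fish in the labels, and same-numbered libraries did not deviate together (correlation over genes -0.0326). A fit with a replicate block gave 7191 genes higher in testis, 5610 in ovary and 1 telomerase gene higher in testis, against 3. The legacy quasi-likelihood test, also added later, gave 7848 and 6182 genes. Genes with few counts, such as polr3glb in ovary, are measured less precisely, although the ovary libraries were the deeper ones.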
